A study of Homo sapiens with 2 samples.

Results

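VIM, LGALS1, CAV1, CAVIN1, AXL, TGFBI, FN1, SPARC and TIMP1 are 9 genes known for mesenchymal cells and the extracellular matrix. They were chosen by symbol, with no threshold on a measured value, and all 9 were found among the 30796 gene identifiers measured. They were followed in single cells of 2 human cell lines, MDAMB468 and CAL51, both labelled as triple negative breast cancer from breast with no treatment or genetic change named for either. Each line is 1 Drop-seq library. In Drop-seq a droplet brings together 1 cell and 1 bead, and the bead's primers tag each poly(A) RNA at its 3′ end with a sequence shared by that cell (the barcode) and a random sequence of its own (the unique molecular identifier, UMI). The comparison made is between the lines, and the cells of a line serve to describe how each gene varies inside it.

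Vimentin is the intermediate filament protein of mesenchymal cells, and carcinoma cells often carry it beside their keratins when they have taken on mesenchymal features. Such cells also tend to make matrix proteins, matricellular proteins that tie cells to the matrix, inhibitors of the proteases that cut it, and the caveolar coat that lines small pits of the plasma membrane. Triple-negative breast cancer lines are known to differ widely in how epithelial or mesenchymal they are.

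The MDAMB468 library held 306 barcodes with 5501900 UMIs, and its barcodes had a median of 10016.5 UMIs (range 2501 to 134213). The CAL51 library held 1377 barcodes. Of these, 31 had a sequence that was also present in MDAMB468 and were left out. That left 1346 barcodes with 16223444 UMIs and a median of 8635 (range 2506 to 113702). The MDAMB468 barcodes of the same 31 sequences were kept, and they held 2181232 of that line's 5501900 UMIs. The 31 CAL51 copies left out held 135240 UMIs. In MDAMB468, 64 barcodes were satellites, meaning that they differed at 1 base from another MDAMB468 barcode whose UMIs were 5 times theirs or more, and CAL51 had 7. Satellites were kept, and values without them are given where they differ. The fixed list of 12 epithelial markers summed to 5850 CPM (UMIs of a gene scaled to the same total in each line) in MDAMB468, with none of them at 0. In CAL51 they summed to 2830 CPM, with 2 at 0. More than 2-fold higher were 9 in MDAMB468 and 1 in CAL51 (KRT18, at 555 and 1555 CPM), against 15.8% and 18.6% of all genes tested. Of 8 leukocyte markers, 5 had an entry, and these gave 4 UMIs in MDAMB468 and 14 in CAL51. Of all 30796 identifiers, 30785 had at least 1 UMI over both lines, so having an entry mostly meant detection. The fibroblast markers summed to 12.9 CPM in MDAMB468, with 2 of the 7 measured at 0, and to 57.6 CPM in CAL51, with 2 at 0. COL1A2 gave 53.2 CPM of the CAL51 sum and had 0 UMIs in MDAMB468, whereas FAP had 8.18 CPM in MDAMB468 and 0 in CAL51. Of the 4 with at least 20 UMIs, 2 were more than 2-fold higher in each line. Of 8 endothelial markers, 7 had an entry, and these summed to 22.5 CPM in MDAMB468 and 9.25 CPM in CAL51. KDR gave 102 UMIs in MDAMB468 and 2 in CAL51, EGFL7 gave 2 and 141, and ESAM gave 13 and 1. VWF and CDH5 were at 0 in MDAMB468 and TEK in CAL51. The part of other cells in the values below was not tested.

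Levels are the UMIs of a gene summed over a line and scaled to CPM, with exact 95% Poisson intervals, and ratios carry exact conditional 95% intervals. With 1 library per line these intervals cover counting error only, and no p-value was computed. In pooled UMIs, fewer expressing cells and less RNA per cell cannot be told apart. Since each RNA is counted once, CPM does not grow with transcript length, and the 9 levels can be set in order within a line, though capture may differ between genes.

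VIM, the filament gene itself (chromosome 10, 17228259 to 17237593, plus strand, GENCODE 29 on GRCh38), was almost equally abundant in the 2 lines. It had 1736 UMIs in MDAMB468, or 316 CPM (301 to 331), and 5386 UMIs in CAL51, or 332 CPM (323 to 341). The log2 difference of CPM + 1, MDAMB468 minus CAL51, was -0.07, and its sign depended on the scaling (range over settings -0.22 to 0.13), so no direction is given. Genes on the opposite strand overlap VIM in the annotation, and the sources used here do not say whether counting used the strand. The overlapping genes held 100 UMIs over both lines.

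LGALS1 encodes galectin-1, a secreted lectin that binds galactose-bearing sugars on matrix and cell-surface proteins. The gene (chromosome 22, 37675608 to 37679806, plus strand) had 7958 UMIs or 1446 CPM (1415 to 1479) in MDAMB468 and 4116 UMIs or 254 CPM (246 to 262) in CAL51. Galectin-1 RNA was thus 5.70-fold higher in MDAMB468 (5.49 to 5.92), a log2 difference of 2.51. LGALS1 was the most abundant of the 9 genes in MDAMB468, 4.58-fold above VIM (4.35 to 4.83), whereas VIM led in CAL51, 1.31-fold above LGALS1 (1.26 to 1.36). The difference between the lines was as large without the satellites (2.51) and with the 31 shared barcodes kept in CAL51 (2.45).

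Of the caveolar genes, CAV1 was nearly level between the lines and CAVIN1 was higher in MDAMB468. CAV1 encodes caveolin-1, which inserts into the membrane of caveolae, and CAVIN1 encodes the cytoplasmic protein that assembles their coat. CAV1 (chromosome 7, 116524785 to 116561184, plus strand) had 842 UMIs or 153 CPM (143 to 164) in MDAMB468 and 2421 UMIs or 149 CPM (143 to 155) in CAL51, and the sign of its log2 difference of 0.04 depended on the scaling (-0.11 to 0.15). CAVIN1 (chromosome 17, 42402452 to 42423517, minus strand) had 621 UMIs or 113 CPM (104 to 122) in MDAMB468 and 1251 UMIs or 77.1 CPM (72.9 to 81.5) in CAL51. It was 1.46-fold higher in MDAMB468 (1.33 to 1.61), short of the 2-fold limit used to call a difference. The 2 genes differed from each other by 1.36-fold in MDAMB468 (1.22 to 1.51) and by 1.94-fold in CAL51 (1.81 to 2.07).

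The matrix genes held the widest contrasts. TGFBI, which encodes a secreted matrix protein induced by TGF-β, was measured in MDAMB468 alone among the barcodes used: 71 UMIs or 12.9 CPM (10.1 to 16.3), against 0 of 16223444 UMIs in CAL51. Against a floor of 3 counts in CAL51, TGFBI was at least 69.8-fold higher in MDAMB468. The only CAL51 UMI of TGFBI lay in 1 of the shared barcodes left out. In MDAMB468, 25 of the 71 UMIs lay in the barcodes of shared sequence. SPARC, which encodes a collagen-binding matricellular protein, had the opposite pattern. It had 3 UMIs or 0.545 CPM (0.112 to 1.59) in MDAMB468 and 689 UMIs or 42.5 CPM (39.4 to 45.8) in CAL51, a level 77.9-fold higher in CAL51 (26.5 to 379). Both genes lie on chromosome 5, TGFBI from 136028895 to 136063818 on the plus strand and SPARC from 151661096 to 151687165 on the minus strand.

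FN1 and TIMP1 did not pass 2-fold. FN1, the gene of fibronectin (chromosome 2, 215360440 to 215436172, minus strand), was scarce in both lines, with 23 UMIs or 4.18 CPM (2.65 to 6.27) in MDAMB468 and 100 UMIs or 6.16 CPM (5.02 to 7.50) in CAL51. The ratio, 0.678, had an interval of 0.411 to 1.08 that includes no difference. The log2 difference was -0.47 and stayed negative in every setting tried (-0.92 to -0.19). It was lowest with each barcode weighted equally. Of the 23 UMIs in MDAMB468, 10 lay in the 31 barcodes whose sequence is also in CAL51. TIMP1, an inhibitor of matrix metalloproteinases (chromosome X, 47582313 to 47586789, plus strand), had 234 UMIs or 42.5 CPM (37.3 to 48.3) in MDAMB468 and 925 UMIs or 57.0 CPM (53.4 to 60.8) in CAL51. It was 1.34-fold higher in CAL51 (1.16 to 1.55). TIMP1 lies within SYN1 on the other strand. No UMI of SYN1 was counted, but whether SYN1 is among the measured identifiers was not checked.

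AXL, a receptor tyrosine kinase of the TAM family often linked to mesenchymal carcinoma cells (chromosome 19, 41219203 to 41261766, plus strand), was near the limit of detection. It had 0 UMIs in MDAMB468 and 30 in CAL51, or 1.85 CPM (1.25 to 2.64), at least 3.39-fold higher in CAL51 against the floor of 3 counts. The log2 difference of CPM + 1 was -1.51, and it was -0.24 with a pseudocount of 10 CPM, which ended the call.

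**Figure D1:**
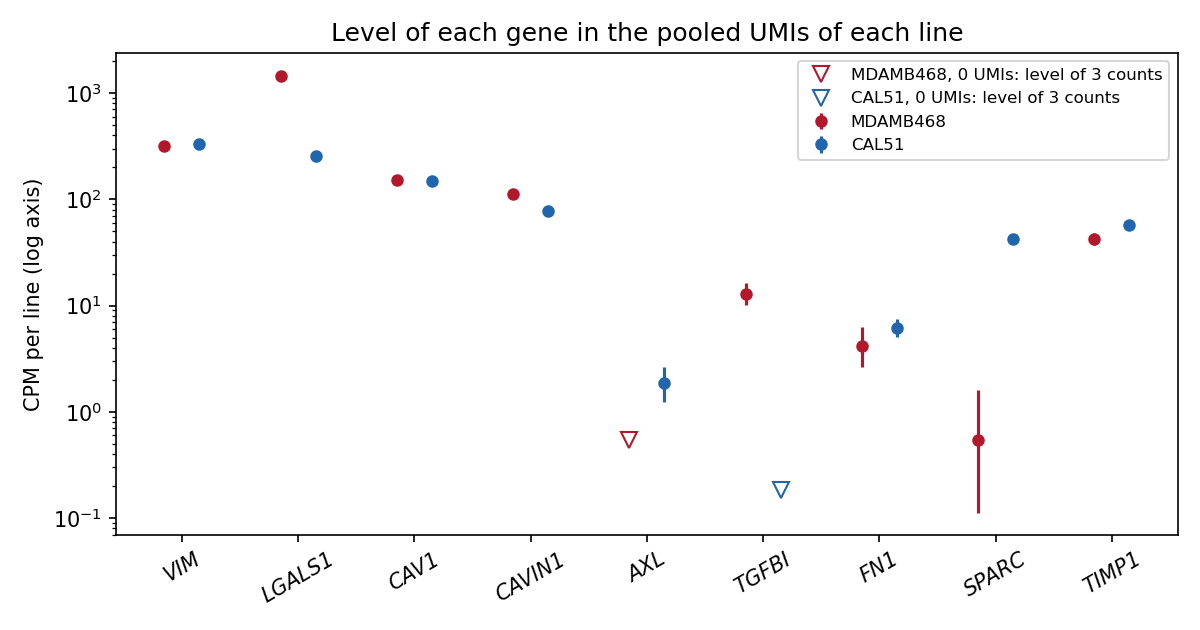
Level of each of the 9 genes in the pooled UMIs of MDAMB468 (red) and CAL51 (blue), in CPM on a log axis, with 95% Poisson intervals, 1 library per line. Open triangles mark 0 UMIs, drawn at the level of 3 counts. VIM and CAV1 sit at almost the same height in both lines, LGALS1 is higher in MDAMB468, and TGFBI, SPARC and AXL are at or near the floor in 1 line.

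In MDAMB468 the order of levels was LGALS1, VIM, CAV1, CAVIN1, TIMP1, TGFBI, FN1, SPARC and AXL. Each neighbour in that order differed beyond counting error except SPARC and AXL, with 3 and 0 UMIs. In CAL51 the order was VIM, LGALS1, CAV1, CAVIN1, TIMP1, SPARC, FN1, AXL and TGFBI, and each neighbour differed beyond counting error; FN1 was 3.33-fold above AXL (2.20 to 5.19). The lines thus shared their 5 most abundant genes, with LGALS1 and VIM exchanged.

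Of the 9 genes, 2 were more than 2-fold higher in MDAMB468 (LGALS1 and TGFBI), 2 were more than 2-fold higher in CAL51 (AXL and SPARC), and 5 were neither. Among all 15347 genes with at least 20 UMIs over both lines, 15.8% were past 2-fold higher in MDAMB468 and 18.6% past 2-fold higher in CAL51. With so few genes, 2 in each direction is near that background and is no result about the set. The median log2 difference was -0.07 over the 9 genes and -0.13 over all genes. Scaling by TMM factors moved the median of all genes by -0.12, and scaling by the median of ratios moved it by -0.13.

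**Figure D2:**
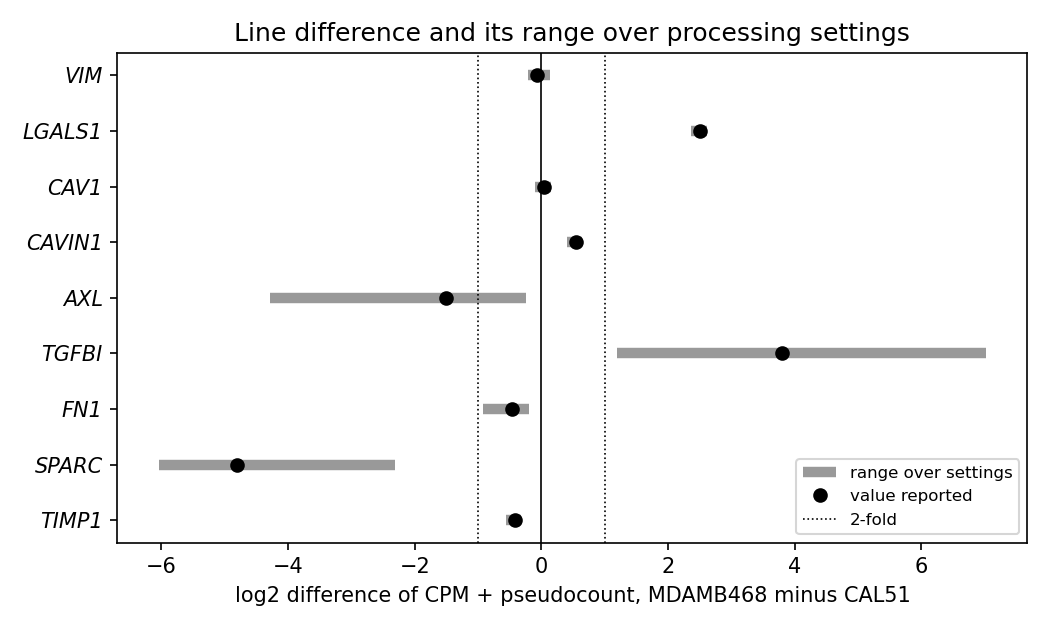
Log2 difference of CPM plus pseudocount, MDAMB468 minus CAL51, for each of the 9 genes (black point) with its range over the processing settings tried (grey bar); dotted lines mark 2-fold. LGALS1, TGFBI and SPARC stay beyond 2-fold over their whole range, AXL reaches -0.24, and the bars of VIM and CAV1 cross 0.

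The sequences just upstream of 4 starts are shown because 3 of these genes (SPARC, AXL and TGFBI) were at or near 0 in 1 line, while VIM was abundant in both. RefSeq on GRCh38.p14 gave the 250 bases before the transcript start for 7 of the 9 genes, and for those with several listed starts the nearest to the annotated gene start was taken. SPARC is shown from chr5:151686916-151687165 (minus strand), AXL from chr19:41218973-41219222, TGFBI from chr5:136028738-136028987 and VIM from chr10:17227991-17228240 (plus strand for these 3). All are written 5′ to 3′ along the gene. The RefSeq starts used differ from the GENCODE gene bounds given above. By those bounds the SPARC window lies inside its gene, the AXL and TGFBI windows reach into theirs, and the VIM window lies before its gene. The windows of CAV1, FN1 and TIMP1, counted below, also reach into their genes. Capitals mark matches, on either strand, to a GC box (GGGCGG) or to an E-box (CAGGTG).
SPARC: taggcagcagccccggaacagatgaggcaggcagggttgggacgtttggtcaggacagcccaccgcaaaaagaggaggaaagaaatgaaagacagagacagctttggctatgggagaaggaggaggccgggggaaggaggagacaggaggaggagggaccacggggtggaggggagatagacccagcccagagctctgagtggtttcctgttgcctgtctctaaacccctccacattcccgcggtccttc
AXL: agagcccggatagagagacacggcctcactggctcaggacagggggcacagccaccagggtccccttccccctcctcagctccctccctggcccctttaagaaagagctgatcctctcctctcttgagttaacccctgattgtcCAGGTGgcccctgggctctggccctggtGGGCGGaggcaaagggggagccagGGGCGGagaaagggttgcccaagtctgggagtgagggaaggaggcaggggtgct
TGFBI: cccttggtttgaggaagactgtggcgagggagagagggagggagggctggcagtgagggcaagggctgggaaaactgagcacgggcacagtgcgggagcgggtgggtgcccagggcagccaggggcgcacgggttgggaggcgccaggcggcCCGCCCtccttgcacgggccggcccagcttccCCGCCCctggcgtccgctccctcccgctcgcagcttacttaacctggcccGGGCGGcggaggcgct
VIM: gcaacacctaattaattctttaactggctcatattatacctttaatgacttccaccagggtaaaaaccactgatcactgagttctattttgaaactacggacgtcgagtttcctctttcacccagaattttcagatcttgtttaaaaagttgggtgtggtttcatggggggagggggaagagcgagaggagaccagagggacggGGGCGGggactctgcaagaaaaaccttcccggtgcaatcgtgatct

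A TATA box (TATAAA) and an AP-1 site (TGANTCA) were also searched, on both strands, and matched none of the 7 windows. The SPARC window held no match to any of the 4 motifs. AXL held 2 GC boxes and the only E-box of the 7 windows, TGFBI held 3 GC boxes and VIM held 1. Of 35116 RefSeq windows of the same length, 42.6% held a GC box, 17.5% the E-box, 10.7% the TATA box and 6.57% the AP-1 site. CpG dinucleotides numbered 20 in TGFBI, 8 in VIM, 7 in SPARC and 4 in AXL, against a median of 11 over all windows (quartiles 3 and 23). FN1 was the richest of the 7 windows in GC boxes and CpG, with 6 and 32. CAV1 had 3 GC boxes and 18 CpG, and TIMP1 had 2 and 12. These are matches of letters only, and no binding or methylation was measured. A relation of these counts to RNA level was not tested.

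VIM had the highest Fano factor of the 9 genes in each line, among those with a UMI there. To compare barcodes at equal depth, each was reduced to 2500 UMIs by exact expectation over all draws, and the Fano factor is the variance over the mean (1 for pure counting noise). VIM had a mean of 0.892 UMIs in MDAMB468 with a Fano factor of 1.98, and 0.812 in CAL51 with 2.09. The median over genes with a mean of at least 0.1 was 1.05 in MDAMB468 (3794 genes) and 1.06 in CAL51 (4154 genes). Neither these genes nor the others of the 9 were matched to VIM on mean, and the Fano factor can grow with it. The order of Fano factors is thus no ranking of variation relative to the mean. VIM was expected in 47.6% of barcodes in MDAMB468 and in 42.0% in CAL51 at that depth. Without reduction, VIM was found in 229 of 306 barcodes (74.8%, exact interval 69.6 to 79.6) in MDAMB468 and in 896 of 1346 (66.6%, 64.0 to 69.1) in CAL51. No barcodes of these lines are known to lack VIM, so the share that free RNA alone would give was not measured.

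LGALS1 was close to universal in MDAMB468. At 2500 UMIs it had a mean of 3.70 with a Fano factor of 1.57 and was expected in 96.0% of barcodes, and without reduction all 306 had a UMI. In CAL51 its mean was 0.667, its Fano factor 1.29, and 44.8% of barcodes were expected to show it. A similar share of CAL51 barcodes thus showed LGALS1 and VIM at this depth, but VIM had the higher Fano factor.

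The caveolar genes were found in fewer barcodes. CAV1 had means of 0.420 and 0.380 in MDAMB468 and CAL51, Fano factors of 1.31 and 1.35, and expected shares of 31.0% and 28.0%. CAVIN1 had means of 0.298 and 0.198, with Fano factors of 1.09 and 1.26. TIMP1 had a mean of 0.103 and a Fano factor of 1.02 in MDAMB468, and 0.147 and 1.25 in CAL51. For CAVIN1 and TIMP1 the Fano factor was higher in CAL51 while CAVIN1 had the lower mean there and TIMP1 the higher. SPARC was patchy in CAL51, with a mean of only 0.105 but a Fano factor of 1.63 and an expected share of 7.87%. The Fano factor can grow with the mean and the depth, so these values are compared at 1 depth only.

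Without reduction, SPARC was found in 274 of 1346 CAL51 barcodes (20.4%, 18.2 to 22.6) and in 3 of 306 MDAMB468 barcodes (0.980%, 0.203 to 2.84), at median depths of 8635 and 10016.5 UMIs. TGFBI was found in 36 of 306 MDAMB468 barcodes (11.8%, 8.38 to 15.9) and in 0 of 1346 CAL51 barcodes; taking 3 barcodes as the limit, this allows a share with a UMI of up to 0.223%. AXL was found in 25 of 1346 CAL51 barcodes (1.86%, 1.21 to 2.73) and in 0 of 306 MDAMB468 barcodes, which by the same limit allows up to 0.980%. These limits hold for barcodes with a UMI, not for cells that express the gene, and the exact intervals reach 0.274% and 1.198%. FN1 was found in 14 of 306 (4.58%, 2.52 to 7.56) and in 60 of 1346 (4.46%, 3.42 to 5.70). The intervals of these shares take the barcodes of 1 library as independent, satellites included, and are no comparison of the lines. Free RNA within each library was not measured.

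In barcodes with at least 10000 UMIs and no satellites, VIM ranged from 0 to 3790 CPM in MDAMB468 (153 barcodes, median 198, 27 at 0) and from 0 to 2802 CPM in CAL51 (557 barcodes, median 195, 125 at 0). The VIM distributions of the 2 lines lay almost on each other. LGALS1 ranged from 506 to 4016 CPM in MDAMB468 (median 1445, none at 0) and from 0 to 1066 CPM in CAL51 (median 220, 40 at 0), so the ranges overlapped between 506 and 1066 CPM. CAV1 had medians of 124 and 108 CPM with 17 and 136 barcodes at 0. CAVIN1 had medians of 88.0 and 46.7 CPM with 28 and 240 at 0. Depth still differed among these barcodes, and the number at 0 depends on it. SPARC was 0 in 393 of the 557 CAL51 barcodes and reached 859 CPM in the highest.

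**Figure D3:**
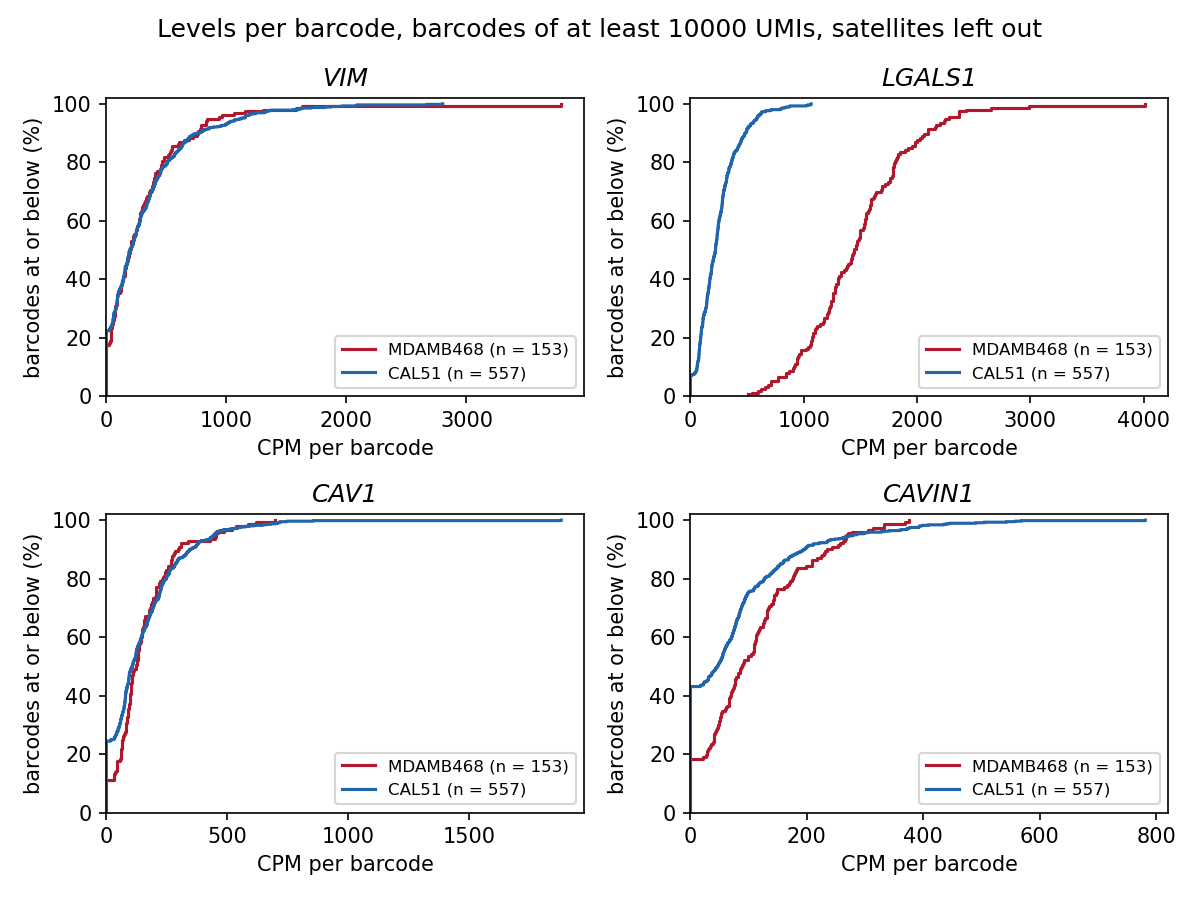
Cumulative distributions of CPM per barcode for VIM, LGALS1, CAV1 and CAVIN1 in MDAMB468 (red, 153 barcodes) and CAL51 (blue, 557 barcodes), using barcodes of at least 10000 UMIs without satellites. The curves for VIM nearly coincide, and the curve for LGALS1 in MDAMB468 lies to the right of that in CAL51. CAV1 and CAVIN1 start higher on the y axis in CAL51, where 24.4% and 43.1% of barcodes are at 0, against 11.1% and 18.3% in MDAMB468. Depth was not made equal here, and the share at 0 depends on it. At 2500 UMIs per barcode, CAV1 was expected in 31.0% of MDAMB468 and 28.0% of CAL51 barcodes, and CAVIN1 in 24.8% and 16.1%.

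Satellite barcodes bore on 2 of these genes in MDAMB468. VIM stood at 505 CPM in the 64 satellites and 308 CPM in the other barcodes, and its Fano factor was 2.31 without the satellites. CAV1 stood at 218 and 150 CPM, and its Fano factor was 1.14 without the satellites. In contrast LGALS1 stood at 1459 and 1446 CPM. In MDAMB468, 1 barcode held 92 of the VIM UMIs (5.30%), and without the barcode of highest VIM CPM, which had 65 VIM UMIs among 17151, the Fano factor was 1.74. In CAL51 it was 2.06 without the corresponding barcode. Without satellites the log2 difference of VIM was -0.11 and that of CAV1 was 0.02.

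Correlations of the other genes with VIM from cell to cell were weak, at most 0.16, though some lay in the tails over all genes. AXL in MDAMB468 and TGFBI in CAL51 had no UMI and so no value. Pearson's r with VIM at 2500 UMIs, over the 306 barcodes of MDAMB468, was 0.12 for LGALS1, 0.08 for CAV1, 0.04 for CAVIN1 and 0.01 for TIMP1. Over all 3794 MDAMB468 genes of mean at least 0.1 the middle 95% lay between -0.069 and 0.078, so that LGALS1 and CAV1 were above that range and CAVIN1 and TIMP1 inside it. The value of LGALS1 ran from 0.06, both at 1000 UMIs and as Spearman's rho on 1 draw, to 0.19 on log counts without thinning. In the 1346 barcodes of CAL51, r was 0.07 for CAV1, 0.04 for TIMP1, 0.03 for CAVIN1, -0.00 for LGALS1 and -0.06 for SPARC, against a middle 95% of -0.036 to 0.039. CAV1 was above that range and SPARC below it. TGFBI, below the mean limit with 71 UMIs, gave 0.16 in MDAMB468, which was 0.17 without satellites. The scarce FN1 gave -0.00 in both lines, AXL 0.02 in CAL51 and SPARC -0.01 in MDAMB468. The barcodes share 1 library and its free RNA, and values this small in sparse counts are descriptions and no finding.

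**Figure D4:**
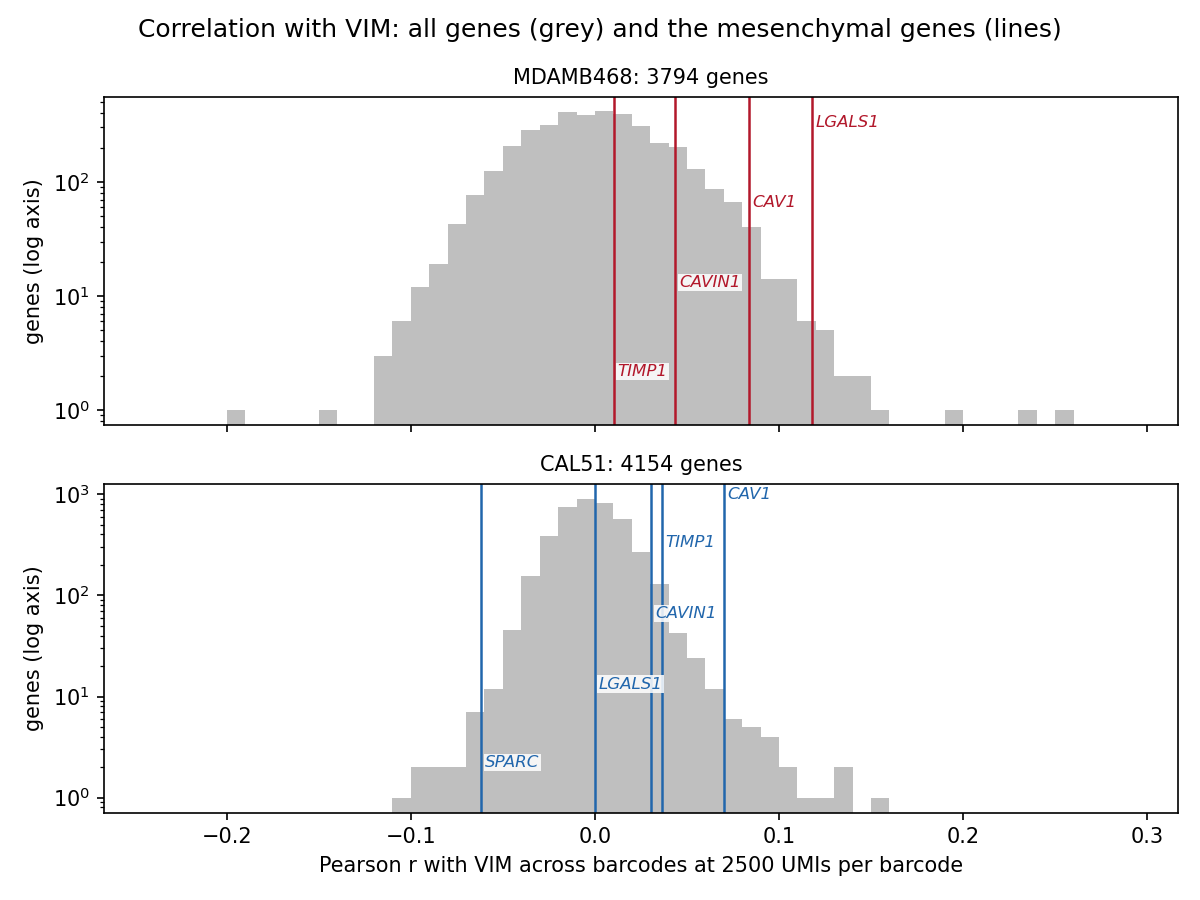
Histogram (grey, log axis) of Pearson's r with VIM at 2500 UMIs per barcode for all genes with a mean of at least 0.1, 3794 in MDAMB468 (top) and 4154 in CAL51 (bottom), with vertical lines at the mesenchymal genes above that mean. LGALS1 and CAV1 lie in the upper tail in MDAMB468, CAV1 in the upper and SPARC in the lower tail in CAL51, and LGALS1 lies at 0 in CAL51.

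The 5 genes most like VIM in MDAMB468, by r over 306 barcodes, were IGFBP3 (0.26), which encodes a binding protein of insulin-like growth factors, the protease gene MMP7 (0.24), TMEM123 (0.20), ANXA2 (0.16), which encodes a membrane-binding annexin, and the keratin gene KRT19 (0.15). Without satellites these were 0.28, 0.26, 0.17, 0.12 and 0.11, and LGALS1 was at 0.13, above ANXA2 and KRT19. In CAL51, over 1346 barcodes, they were TMSB10 (0.15), which encodes an actin-binding thymosin, ANXA2 (0.13), the gene of the transcriptional inhibitor ID3 (0.13), GOLIM4 (0.13) and S100A6 (0.11). ANXA2 was among the 5 in both lines with the satellites kept. TMSB10 had the opposite sign in MDAMB468, with r of -0.08. With the satellites kept, none of the other 8 mesenchymal genes was among the 5 in either line, though TGFBI in MDAMB468 was left out of this ranking by its low mean. Summed epithelial markers, KRT19 among them, had r of 0.13 with VIM in MDAMB468 and -0.02 in CAL51. The summed G2 and M phase genes had -0.08 and -0.06. These values were not particular to VIM: LGALS1 had r of 0.19 and -0.14 with the same 2 sums in MDAMB468. In CAL51 LGALS1 had -0.04 and 0.04. Satellites were kept for these sums.

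Among the genes above the mean limit, pairs without VIM were as weak. In CAL51 the highest were SPARC with TIMP1 (0.08) and CAVIN1 with TIMP1 (0.07), and the lowest was CAV1 with SPARC (-0.05). CAV1 with CAVIN1, whose proteins build the same coat, gave -0.00 in MDAMB468 and 0.01 in CAL51. The highest pair without VIM in MDAMB468 was LGALS1 with CAV1, at 0.05.

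Genes that work with these 9 were described from 8 lists of 101 genes, of which 70 had at least 20 UMIs; 18 were past 2-fold higher in MDAMB468, 30 past 2-fold higher in CAL51 and 22 neither. The shares of all genes given above, 15.8% and 18.6%, are the background to these counts. Of 4 intermediate filament partners tested, only SYNM, which encodes the filament protein synemin, passed 2-fold, at 49 UMIs in MDAMB468 and 324 in CAL51 (log2 difference of CPM + 1 -1.08). The highest was PLEC, the plectin linker, at 0.79, and the list median was 0.60. Of 5 other genes tested in the galectin list, 3 were higher in MDAMB468 and none in CAL51 (median 1.10). They ran from LGALS9 at 9.81 and 0.308 CPM (log2 difference 3.05) to LGALSL at 93 and 487 UMIs (-0.79). The 3 included LGALS3BP (1.24), which encodes a galectin-binding protein and not a galectin.

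Of 7 genes tested in the caveolar list, 1 was higher in MDAMB468 and 2 in CAL51, with a median of -0.05. The 7 include EHD1, EHD2, PACSIN2 and PACSIN3, which encode neither a caveolin nor a cavin. The caveolin and cavin genes tested were CAV2 (-0.05), CAVIN2 (-3.29) and CAVIN4 (-1.68). The extremes were EHD1, an ATPase and no coat subunit, at 1.16, and CAVIN2. CAVIN2, which encodes a coat subunit, had 0 UMIs in MDAMB468 and 142 in CAL51 (8.75 CPM), at least 16.1-fold higher in CAL51. The TAM receptors and their ligands, to which AXL belongs, split in direction (1 higher in MDAMB468, 2 higher in CAL51, median -1.16). Both ligand genes were among the called ones. GAS6 had 12.2 CPM in MDAMB468 and 0.370 CPM in CAL51 (32.9-fold higher in MDAMB468, 14.4 to 92.9), and PROS1 had 0 and 187 UMIs (at least 21.1-fold higher in CAL51).

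Of 6 fibronectin receptor genes, 2 were higher in MDAMB468 and 3 in CAL51 (median -0.32). ITGB6, an epithelial integrin subunit, was highest at 79.6 and 1.23 CPM (64.6-fold, 41.3 to 107), and ITGB3 was lowest with 0 and 66 UMIs (at least 7.46-fold higher in CAL51). Of 9 matricellular genes, 2 were higher in MDAMB468 and 5 in CAL51 (median -1.66). SMOC2, of the SPARC family, had 0 and 528 UMIs, at least 59.7-fold higher in CAL51, and TNC, the gene of tenascin-C, had 77 and 1 UMIs, or 14.0 and 0.0616 CPM. SMOC2 and TNC thus each had at most 1 UMI in 1 of the lines, SMOC2 in MDAMB468 and TNC in CAL51.

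Of 9 genes tested in the list of TIMP and MMP genes, 3 were higher in MDAMB468 and 2 in CAL51 (median -0.77). The 9 include CD63, which encodes a surface protein and neither a protease nor an inhibitor. MMP7, the matrilysin gene, had 520 and 0 UMIs, at least 511-fold higher in MDAMB468, and MMP11 had 0 and 91 UMIs, at least 10.3-fold higher in CAL51. The list of other mesenchymal effectors was the longest, with 26 tested: 6 were higher in MDAMB468, 15 in CAL51 and 5 neither, with a median of -1.51. Its extremes were MYL9, a contractile myosin light chain, at 1 UMI in MDAMB468 and 4203 in CAL51 (0.182 and 259 CPM, log2 difference -7.78), and MGP, the matrix Gla protein gene, at 11008 and 14 UMIs (2001 and 0.863 CPM, log2 difference 10.07). Of the lists here, 89 of the 101 genes had an entry, and the others were not analysed here.

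**Figure D5:**
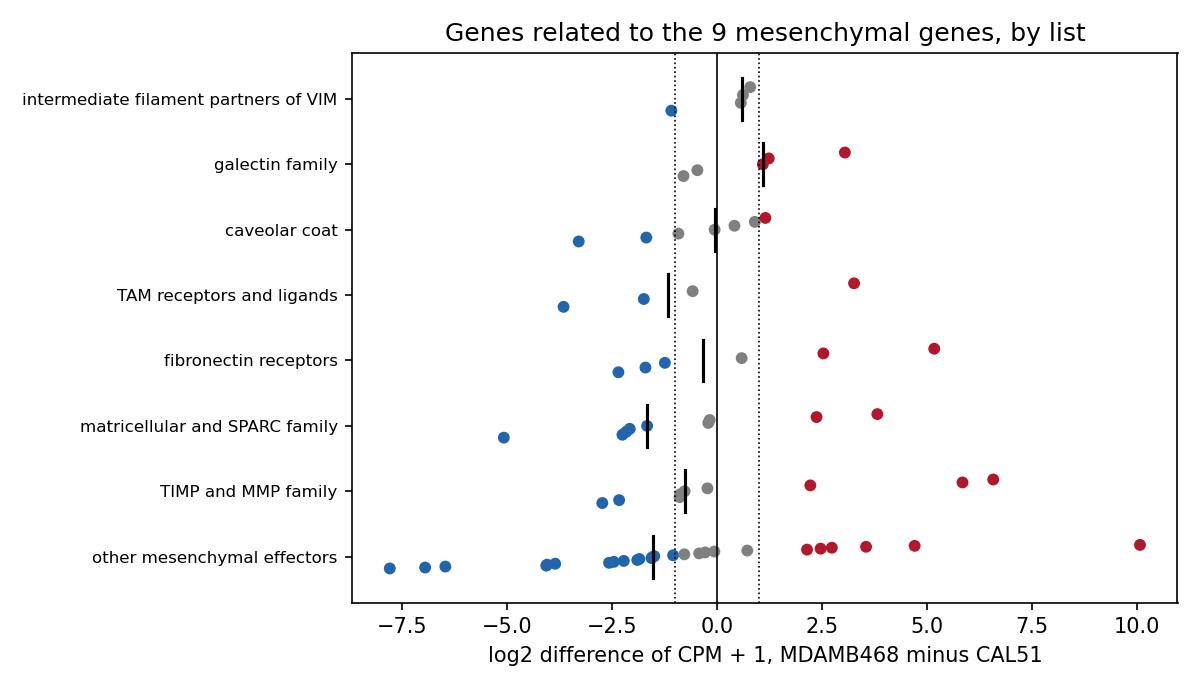
Log2 difference of CPM + 1, MDAMB468 minus CAL51, for the 70 tested genes of the 8 lists, 1 point per gene, coloured red past 2-fold higher in MDAMB468, blue past 2-fold higher in CAL51 and grey otherwise; black bars are list medians. The other mesenchymal effectors spread from -7.78 for MYL9 to 10.07 for MGP, with 15 of 26 in blue.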

How the data were processed

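Drop-seq UMI counts of the cell lines MDAMB468 and CAL51 were analysed, 1 library each. The matrix the authors deposited gives raw UMI counts, in whole numbers, for every gene in every barcode. STARsolo is named in the submitters' processing notes, with no version. Genome build, strand setting and barcode selection: not given in the sources used here. Each barcode's line came from the prefix of its name. Symbols were found for 30730 of 30796 identifiers, and positions came from GENCODE 29 on GRCh38.

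The 9 genes, the gene lists and the rules were chosen with earlier results of these data known, and the 10000-UMI minimum, the promoters shown and the motifs were chosen after values were seen. UMIs were summed per line and scaled to CPM. A difference is log2 of CPM + 1, which understates differences of scarce genes, and a gene was called past 2-fold. Genes with at least 20 UMIs over both lines were compared. Intervals are exact 95% Poisson, conditional binomial and Clopper-Pearson intervals, and the floor is 3 counts per library. The Poisson and conditional binomial intervals cover counting error only. The Clopper-Pearson intervals of shares take the barcodes of 1 library as independent, satellites included. None of them measures the spread between libraries of a line. Moments at 2500 UMIs per barcode are exact expectations of drawing without replacement. They were tested against random draws from the VIM and LGALS1 counts of MDAMB468. The fold rule and the ratio interval were tested on simulated counts. No doublets were removed; leaving out the 5% of barcodes with most UMIs was an alternative.

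Named genes are the 9, the highest and lowest of each list among genes with at least 20 UMIs, and the 5 genes of highest r with VIM in each line among those with a mean of at least 0.1, without mitochondrial and ribosomal protein genes. The endothelial markers ESAM, VWF, CDH5 and TEK were named after their values were seen, and so were LGALS3BP and CD63. The same holds for CAV2, CAVIN4, EHD2, PACSIN2 and PACSIN3. The tools were edgeR 4.0.16 in R 4.3.3, for TMM factors alone, and matplotlib 3.10.9, pandas 2.3.3, scipy 1.17.1 and numpy 2.4.6 under Python 3.11.15.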

Additional observations from a re-analysis of the deposited data

Results flagged for a closer look

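LGALS1 and TIMP1 were picked out in data that the comparisons do not use, the 31 CAL51 barcodes whose sequence is also in MDAMB468. The rule, applied to all 9 genes, asked for more than 3 UMIs there. It also asked for a lower 95% limit above the upper limit in the other CAL51 barcodes. LGALS1 passed by far, at 1226 against 262 CPM, whereas TIMP1 barely passed, at 62.1 against 60.8 CPM. LGALS1 had 192 UMIs there, or 1420 CPM (1226 to 1635), against 254 CPM in the other CAL51 barcodes and 1416 CPM in the MDAMB468 barcodes of the same sequence. These barcodes held 4.46% of all CAL51 UMIs of LGALS1. TIMP1 had 15 UMIs there, or 111 CPM (62.1 to 183), against 57.0 CPM in the other CAL51 barcodes and 42.2 CPM in the MDAMB468 barcodes of the same sequence. SPARC had 1 UMI there, or 7.39 CPM (0.187 to 41.2), against 42.5 CPM in the other CAL51 barcodes and 0.917 CPM in the MDAMB468 barcodes of the same sequence. VIM, which was alike in both lines, had 296 CPM there. The source of the RNA in these barcodes was not tested.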

How the results depend on the processing

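No sign reversed among the called differences over 9 alternatives of scaling, pseudocount, weighting and barcodes left out. Of the 9 genes, 1 was called higher in CAL51 with a pseudocount of 10 CPM, and 1 with a 4-fold limit. Over all genes, 1046 were higher in MDAMB468 and 1146 in CAL51 with 10 CPM, and 1132 and 896 with 4-fold; the main counts were 2429 and 2847. With at least 100 UMIs, 1337 were higher in MDAMB468 and 2144 in CAL51. The Fano factor of VIM was 1.39 in MDAMB468 and 1.44 in CAL51 at 1000 UMIs per barcode, and 3.42 and 3.03 at 5000. The median r of the genes with VIM in MDAMB468 was 0.15 on log counts without thinning, where depth is not equal. Leaving out the barcode with the highest VIM CPM, chosen after seeing the data, kept the 2 Fano factors of VIM within 1.2 times. Of 81 differences under alternatives, 15 moved by more than their interval's half-width, or for genes with 0 UMIs by more than 0.5. Of 66 Fano factors 11 moved by more than 1.2 times, and of 72 correlations 11 moved by more than 0.05; these limits are working limits. Depth limits AXL, TGFBI and SPARC, which had at most 3 UMIs in 1 line. No paired analysis was possible because each line has 1 library and no test was made.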
